A study of Mus musculus with 10 samples.

Results

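The genes described here make, cross-link and cut the extracellular matrix. They are the matrix metalloproteinases (Mmp), their tissue inhibitors (Timp), the Adamts proteases and Adamts-like proteins, the lysyl oxidases (Lox, Loxl), the collagen lysyl hydroxylases (Plod) and the alpha subunits of collagen prolyl 4-hydroxylase (P4ha). Members were chosen by gene symbol and by having a protein-coding transcript. The rule used no expression values, though it was chosen with earlier results of these data known. The rule found 63 gene identifiers with 62 symbols (Mmp27 has 2 identifiers) among 45706 genes. By role there were 18 secreted and 6 membrane-type Mmp genes, 4 Timp, 19 Adamts, 5 Adamtsl, 5 lysyl oxidase, 3 Plod and 3 P4ha genes.

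RNA was sequenced from mouse cells at 5 stages of reprogramming toward pluripotency, with 2 libraries per stage. Mouse embryonic fibroblasts (MEF) came from a C57BL/6 x 129 mouse with the polycistronic OKSM cassette (Oct4, Klf4, Sox2 and Myc) in the Col1a1 locus and the M2rtTA transactivator in Rosa26, and were kept in MEF medium without doxycycline. Cells of the same genotype at day 3 (D3), day 6 (D6) and day 9 (D9) had been moved to ESC medium with doxycycline at 1 µg/ml and ascorbic acid at 50 µg/ml. D3 cells were unsorted, whereas D6 and D9 cells were sorted for SSEA1, a surface epitope of cells on the way to pluripotency. Embryonic stem cells (ESC) were the V6.5 line, C57BL/6 x 129, unsorted, grown in ESC medium on irradiated feeder cells, with neither doxycycline nor ascorbic acid in their label. D3 with MEF therefore combines factor induction, medium and ascorbic acid, D6 with D3 combines time and sorting, and ESC with D9 combines cell origin, factor induction by doxycycline, ascorbic acid, sorting and feeder cells. The series' design text calls the replicates biological but does not say what separated them, so p-values measure the spread between these libraries only.

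Collagen chains are modified inside the cell before they are secreted. Prolyl 4-hydroxylases hydroxylate prolines, which makes the collagen helix stable, and lysyl hydroxylases hydroxylate lysines, which later form cross-links. Ascorbic acid is a cofactor of both enzyme families. Outside the cell, Adamts2, Adamts3 and Adamts14 remove the amino-terminal propeptides of fibrillar procollagens, and lysyl oxidases oxidise lysine side chains so that fibres become cross-linked. Metalloproteinases cut collagens and other matrix proteins, and the Timp proteins inhibit them. Fibroblasts make much of this machinery, which is known as part of their mesenchymal program.

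Libraries held 29585876 to 38275024 estimated reads. The members took at most 1.098% of the reads of a library, in MEF, and at least 0.079%, at D9. Levels are given as TPM (transcript abundance scaled by length and to the same total in every library), replicate 1 first. Differences are log2 fold changes from edgeR on estimated counts, with a standard error (SE), and a difference was called at a Benjamini-Hochberg adjusted p under 0.05 over 20165 genes and at least a 2-fold change. The verbs rose and fell are used of called differences only. The 12 fibroblast markers summed to 9536 to 10030 TPM in MEF, 524.2 to 552.9 at D3, 29.32 to 31.24 at D6 and 13.91 to 13.98 at D9. In ESC they summed to 850.7 to 896.9 TPM. The 6 pluripotency markers, among them Nanog and Zfp42, summed to 0.5602 to 0.7972 TPM in MEF, 74.86 to 77.87 at D9 and 2443 to 2467 in ESC, and the 6 epithelial markers, among them Cdh1 and Epcam, to 4.98 to 5.699 in MEF and 297.3 to 314.4 at D9. No marker of these lists was at 0 in both libraries of a stage except Lum at D9. The 5 cartilage markers summed to 9.176 to 10.04 TPM in MEF and 0.5129 to 0.5605 at D9, and 4 of the 5 were lower at D9. The 5 endothelial markers summed to 1.786 to 3.05 TPM in MEF, 1.196 to 1.213 at D9 and 20.2 to 20.21 in ESC, where Pecam1 made up most of the sum. Of these 5, 4 were higher at D9 than in MEF and Emcn was lower. In bulk RNA, fewer cells of a type and less RNA per cell cannot be told apart.

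Of the 63 members, 53 passed the filter on low counts. The other 10 were Mmp1a, Mmp1b, Mmp3, Mmp7, Mmp8, Mmp20, Mmp21, both Mmp27 identifiers and Timp4, with at most 7.9 estimated reads in any library. A mean of 5 TPM or more in a stage was reached by 32 members, and these are given by library. Exons of 11 of these 32 overlap exons of a gene on the opposite strand in GENCODE M21: Adamts4, Adamts7, Lox, Loxl2, Loxl3, Mmp11, Mmp19, Mmp28, Plod2, Plod3 and Timp3. The kit keeps strand, but the strand setting of the counting is not given in the sources used here, so a part of their reads may belong to the neighbour.

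From MEF to D3, 35 of the 53 tested members fell and 6 rose, while 14.5% of all tested genes fell and 14.6% rose. The median difference of the members was -1.78, beside 0.08 over all genes. From D3 to D6, 32 members fell and 3 rose, beside 10.2% and 9.26% of all genes, with a median of -1.44 beside 0.03. The 3 were Adamts3, Adamts8 and Mmp10, all low. Mmp10 had 0 and 0 estimated reads at D3 and 2 and 5 at D6. Its call was lost with either D3 library or D6 replicate 2 left out. From D6 to D9 most members kept within the thresholds: 9 fell and 3 rose, beside 2.68% and 5.18% of all genes, with a median of -0.18 beside 0.0. The 3 were Adamts15, Adamts19 and Lox, none above 0.22 TPM at D9. Over the whole course, D9 with MEF, 39 members fell and 7 rose, beside 19.8% and 24.1%, with a median of -3.58 beside 0.19. The 7 were Adamts7, Adamts13, Adamts17, Adamts19, Mmp12, Mmp15 and Mmp28, and their number was 3 without MEF replicate 2 and 3 with DESeq2. In ESC, 29 members were higher than at D9 and 8 lower, beside 18.6% and 14.3% of all genes, with a median of 1.49 beside 0.0. Scaling by library size alone raised the median of all genes by 0.21 for D3 with MEF and by 0.29 for D9 with MEF, and reversed no called difference of a member.

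Adamts10, Adamtsl1, Adamtsl3, Loxl4, Mmp11 and Mmp25 fell from D3 to D6 with no call in the step before it. Mmp25 was low, at 0.067 and 0.104 TPM at D3 and 0.026 and 0.042 at D6. Its call was lost with DESeq2, without D3 replicate 2 and without D6 replicate 1. The sum over all members was 2587.1 and 2562.4 TPM in MEF, 695.9 and 714.3 at D3, 303.0 and 310.3 at D6, 215.0 and 221.8 at D9, and 661.5 and 706.3 in ESC. The libraries of a stage lay close together, and ESC lay at the level of D3 while MEF stood far above all other stages.

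The makeup of this sum shifted with stage. Lysyl oxidases held 24.82% of the members' TPM in MEF, 2.404% at D9 and 23.81% in ESC. P4ha genes held 18.86% in MEF, 2.508% at D9 and 9.252% in ESC. The Timp genes went the other way, with 18.2% in MEF, 31.0% at D9 and 31.54% in ESC, and the Plod genes held 9.207%, 23.26% and 9.587%. These shares are descriptions of stage means, and single members weigh heavily in them. Without Timp1, the most abundant Timp gene, the Timp sum went from 263.8 TPM in MEF to 5.197 at D9, and without Lox the lysyl oxidase sum went from 296.9 to 5.084.

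**Figure D1:**
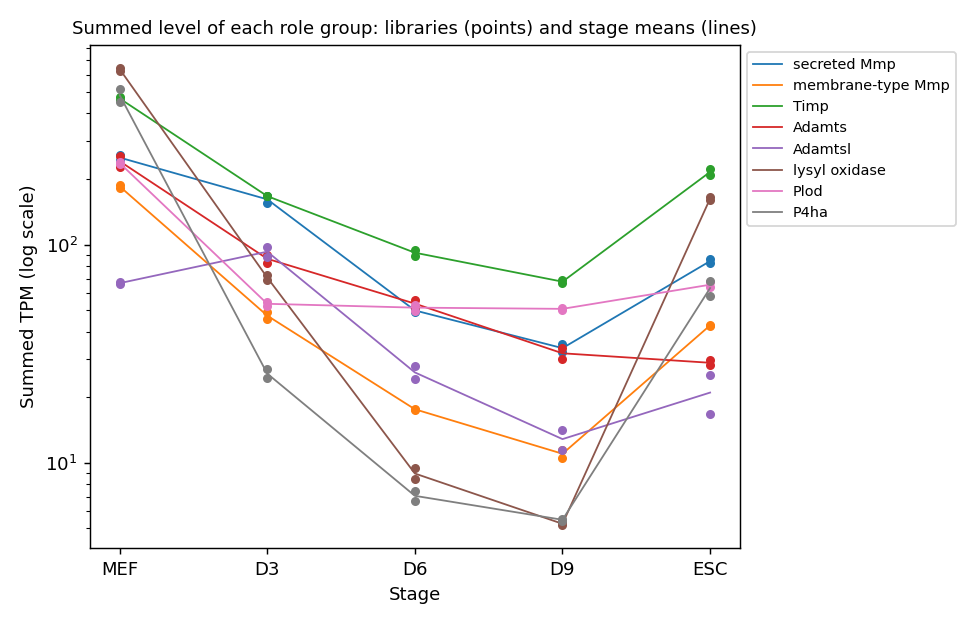
Summed TPM of each role group (vertical axis, log scale) at the 5 stages (horizontal axis). Points are the 2 libraries of a stage and lines join stage means. Lysyl oxidases went from 639.0 TPM in MEF to 5.25 at D9 and P4ha genes from 485.6 to 5.477, whereas Plod genes had 51.47 TPM at D6 and 50.81 at D9.

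The prolyl 4-hydroxylase alpha subunits, which carry the catalytic site of the enzyme, had the lowest median difference of any role group from MEF to D3, -3.87. All 3 fell from MEF to D3 and were higher in ESC than at D9. P4ha1, which encodes the most widespread of the alpha subunits, had 138 and 136 TPM in MEF, 9.51 and 9.39 at D3, 4.93 and 4.88 at D6, 3.26 and 3.13 at D9 and 21.7 and 23.4 in ESC. It fell by 3.87 (SE 0.05) on the log2 scale from MEF to D3 (edgeR adjusted p = 6.9e-17), its MEF libraries being far above all others. From D3 to D6 the log2 difference was -0.93 (SE 0.05), under the 2-fold minimum, and ESC was higher than D9 by 2.62 (SE 0.05). P4ha2, an alpha subunit typical of cartilage, bone and fibroblasts, had 267 and 335 TPM in MEF, 7.49 and 10.4 at D3, 1.99 and 1.18 at D6, 1.71 and 1.97 at D9 and 31.3 and 39.2 in ESC. It fell by 5.24 (SE 0.06) to D3 and then fell by 2.02 (SE 0.11) to D6, where its libraries overlapped those of D9. P4ha3, the least studied of the family, had 49.00 and 46.3 TPM in MEF, 7.47 and 6.97 at D3, 0.518 and 0.619 at D6, 0.447 and 0.435 at D9 and 5.52 and 5.44 in ESC. Its main step came with D6, where it fell by 3.67 (SE 0.1), and the log2 difference from MEF to D3 was -2.81 (SE 0.05). At D9 the 3 genes stood at 2.33%, 0.6119% and 0.9254% of their MEF means. These levels count all transcripts of a gene. Of the P4ha2 reads, 93.8% and 92.6% were assigned to protein-coding transcripts in MEF and 50.9% and 63.8% at D9.

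The promoters of P4ha1 and P4ha2 are shown as examples of members that fell from MEF to D3 and hold the motif marked below. P4ha3 fell as well but was not among the members with a match. Each window runs from 250 bases before to 50 bases after the annotated start (RefSeq, GRCm38.p6; P4ha1 chr10:59323046-59323345 and P4ha2 chr11:54100674-54100973, plus strand). Capitals mark ACGTG or its reverse complement, the core letters of the hypoxia response element.
P4ha1: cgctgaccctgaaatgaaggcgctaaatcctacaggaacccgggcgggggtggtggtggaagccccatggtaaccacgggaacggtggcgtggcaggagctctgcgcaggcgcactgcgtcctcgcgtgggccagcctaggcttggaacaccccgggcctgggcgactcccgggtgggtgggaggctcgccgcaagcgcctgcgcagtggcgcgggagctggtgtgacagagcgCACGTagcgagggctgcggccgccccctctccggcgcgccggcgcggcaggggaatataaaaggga
P4ha2: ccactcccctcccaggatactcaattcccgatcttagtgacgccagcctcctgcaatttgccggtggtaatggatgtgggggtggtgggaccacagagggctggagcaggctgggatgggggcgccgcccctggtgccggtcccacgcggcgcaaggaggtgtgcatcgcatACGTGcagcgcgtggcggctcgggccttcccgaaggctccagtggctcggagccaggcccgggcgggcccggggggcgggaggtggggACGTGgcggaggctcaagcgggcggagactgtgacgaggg
ACGTG was found on either strand in the promoters of 11 of the 42 members with a RefSeq promoter and in 19.6% of all 32851 promoters. A KLF-like motif, GGGNGTGG, was found in 5 members and in 17.6% of all promoters, and the E-box CAGCTG in 9 members and 16.3%. A match describes the letters only.

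Lysyl oxidases had the lowest median difference of any role group over the whole course, -7.24 for D9 with MEF. All 5 were lower at D9 than in MEF, 4 fell already by D3, and 4 were higher in ESC than at D9. Lox, the founding member of the family, had 352 and 332 TPM in MEF, 10.98 and 11.5 at D3, 0.077 and 0.092 at D6, 0.112 and 0.220 at D9 and 49.3 and 49.2 in ESC. It fell by 4.93 (SE 0.06) from MEF to D3 (edgeR adjusted p = 7.6e-17) and fell by 7.2 (SE 0.12) from D3 to D6 (edgeR adjusted p = 7.1e-15), so that D6 and D9 libraries were near 0. D9 was higher than D6 by 1.29 (SE 0.29), a call that was lost without D9 replicate 2, where the difference was 0.64. ESC was higher than D9 by 7.96 (SE 0.1), the largest positive difference of any member in any comparison.

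Loxl1, which works with elastic fibres, had 80.4 and 75.2 TPM in MEF, 6.204 and 6.79 at D3, 0.239 and 0.289 at D6, 0.155 and 0.298 at D9 and 11.7 and 12.1 in ESC. It fell by 3.61 (SE 0.06) to D3 and fell by 4.61 (SE 0.12) to D6. Loxl2, which oxidises lysines in collagen IV of basement membranes, lies at chr14:69609068-69695834 and had 136 and 131 TPM in MEF, 17.2 and 17.9 at D3, 0.993 and 0.950 at D6, 0.835 and 0.798 at D9 and 60.1 and 61.2 in ESC. It fell by 2.91 (SE 0.03) and then fell by 4.17 (SE 0.04), and ESC libraries were higher than D9 by 6.01 (SE 0.04). For both genes the ESC libraries lay between those of D3 and MEF.

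Loxl3, a close relative of Loxl2, had 74.9 and 83.99 TPM in MEF, 31.03 and 32.7 at D3, 5.46 and 6.46 at D6, 2.27 and 2.23 at D9 and 37.6 and 41.05 in ESC. Its fall was spread over the 3 steps, with log2 differences of -1.36 (SE 0.05), -2.33 (SE 0.06) and -1.32 (SE 0.08), and its ESC libraries stood above those of D3. Loxl4 had 6.44 and 6.22 TPM in MEF, 3.36 and 3.703 at D3, 1.66 and 1.64 at D6, 1.79 and 1.79 at D9 and 1.68 and 1.76 in ESC. This low member fell by 1.16 (SE 0.07) from D3 to D6, and ESC and D9 were close, with a log2 difference of -0.06 (SE 0.07). Among the lysyl oxidases, Lox was the most abundant in MEF, with 53.53% of the family's TPM, and Loxl2 in ESC.

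**Figure D2:**
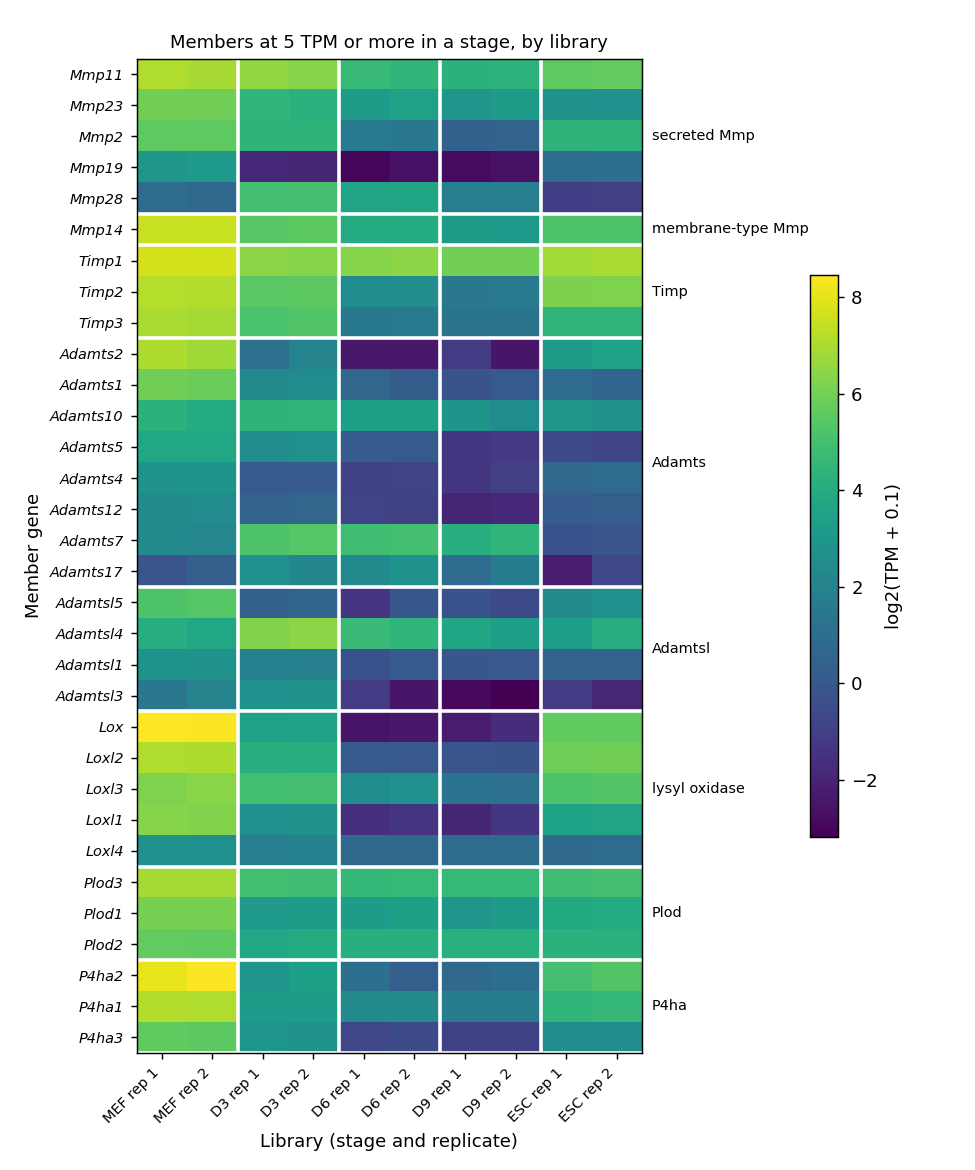
Levels of the 32 members at 5 TPM or more in a stage (rows, grouped by role and ordered by MEF level) in the 10 libraries (columns). Colour is log2(TPM + 0.1). Most rows are brightest in MEF and darkest at D6 and D9. Plod1, Plod2, Plod3 and Timp1 show no called step after D3, though Plod1 and Timp1 are brighter in ESC than at D9, and Adamts7, Adamtsl4 and Mmp28 are brightest at D3.

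Lysyl hydroxylases fell in the first step. All 3 were lower at D3 than in MEF, and none was called from D3 to D6, from D6 to D9 or in ESC with D9. Plod1, the enzyme for lysines in the helical part of collagen, had 67.9 and 67.4 TPM in MEF, 8.65 and 9.14 at D3, 9.36 and 10.7 at D6, 7.45 and 8.94 at D9 and 14.9 and 15.6 in ESC. It fell by 2.89 (SE 0.05) to D3 (edgeR adjusted p = 1.3e-15), and the ESC libraries were above D9 by 0.7 (SE 0.05), short of 2-fold. Plod3, which also adds sugars to hydroxylysine, had 120.0 and 118 TPM in MEF, 30.5 and 29.95 at D3, 23.5 and 24.8 at D6, 24.2 and 24.2 at D9 and 29.3 and 32.4 in ESC. It fell by 2.02 (SE 0.04) to D3 and its D6 and D9 libraries overlapped. Plod2, the enzyme for lysines in the telopeptides, had 51.4 and 49.00 TPM in MEF, 13.3 and 15.6 at D3, 17.1 and 17.5 at D6, 18.4 and 18.4 at D9 and 19.5 and 19.4 in ESC. It fell by 1.78 (SE 0.03) to D3 (edgeR adjusted p = 7.8e-15), after which the log2 differences were 0.03 (SE 0.04) to D6, 0.25 (SE 0.04) to D9 and 0.0 (SE 0.03) in ESC with D9.

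While no step of the Plod2 total was called after D3, the estimated mix of its transcripts differed between stages. The gene has 2 full-length coding transcripts that differ by a cassette exon of 63 nt, or 21 codons, known for its regulated inclusion. It is the 14th of 20 exons of the longer transcript, at chr9:92601985-92602047 on the plus strand (GRCm38, GENCODE M21), and is absent from the transcript with 19 exons. It is shown in capitals, with 20 nt of the neighbouring exons in lower case, because the transcripts differ in it.
Plod2 cassette exon: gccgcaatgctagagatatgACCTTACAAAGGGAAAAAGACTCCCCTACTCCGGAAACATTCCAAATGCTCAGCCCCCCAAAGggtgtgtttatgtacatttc
Of the TPM of these 2 transcripts, the one without the exon held 0.8% and 1.0% in MEF and 11.3% and 0.0% at D3. It held 26.4% and 36.7% at D6, 61.9% and 52.3% at D9, and 34.4% and 24% in ESC. D9 libraries stood above all others, and D6 and ESC overlapped.

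In TPM the transcript with the exon went from 42.78 and 40.69 in MEF to 10.8 and 12.9 at D3 and 5.13 and 6.7 at D9. The transcript without it went from 0.33 and 0.41 in MEF to 1.37 and 0.0 at D3 and 8.33 and 7.34 at D9. The transcript with the exon was lowest at D9, where the one without it was highest. The mean share without the exon was 0.9% ± 0.14 (SD, n = 2) in MEF, 31.55% ± 7.28 at D6 and 57.1% ± 6.79 at D9. These are estimates from single reads of 50 nt, and a read that touches neither the exon nor its junctions cannot tell the transcripts apart. At D3 the replicates differed by 11.3 percentage points. Plod2 was looked at by transcript after its values were seen, so the shares are given as a description and were not tested.

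**Figure D3:**
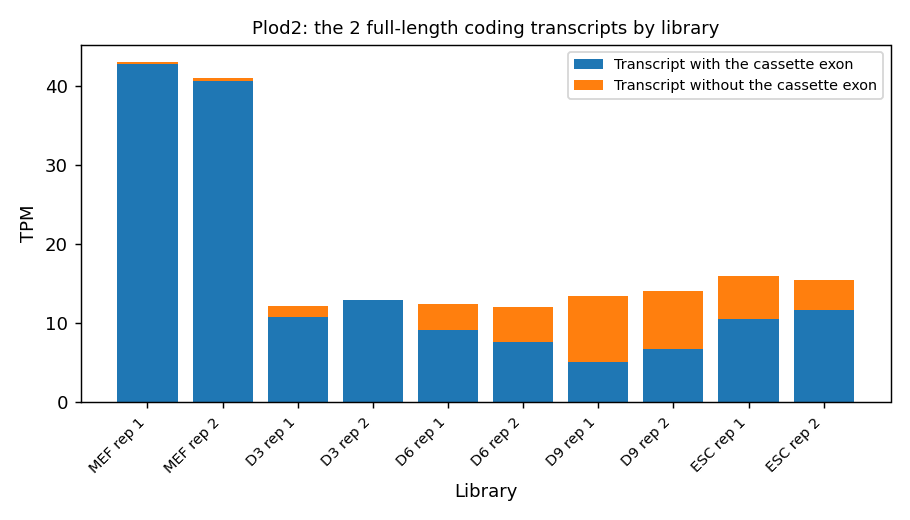
TPM of the 2 full-length coding Plod2 transcripts (vertical axis) in each library (horizontal axis), stacked. The summed height drops between MEF and D3 and then stays low, while the part without the cassette exon reaches 8.33 and 7.34 TPM at D9.

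Tissue inhibitors parted in the second step. All 3 tested Timp genes fell from MEF to D3, and from D3 to D6 Timp2 and Timp3 fell while Timp1 was not called. Timp1, a secreted inhibitor that many cell types make, lies at chrX:20870166-20874735 and had 207 and 203 TPM in MEF, 87.1 and 81.6 at D3, 80.8 and 86.1 at D6, 61.5 and 63.5 at D9 and 117 and 126 in ESC. It fell by 1.3 (SE 0.05) to D3, its D3 and D6 libraries overlapped, and the difference of ESC from D9 was 0.8 (SE 0.06), short of 2-fold. Timp2, which also helps Mmp14 to activate pro-Mmp2, had 144 and 138 TPM in MEF, 44.1 and 46.6 at D3, 5.45 and 5.62 at D6, 2.73 and 2.92 at D9 and 71.5 and 74.7 in ESC. It fell by 1.26 (SE 0.04) and then fell by 3.1 (SE 0.04), and was higher in ESC than at D9 by 4.31 (SE 0.05). Timp3, which stays bound to the matrix and also inhibits Adamts proteases, had 127 and 119 TPM in MEF, 35.8 and 39.04 at D3, 2.78 and 3.11 at D6, 2.38 and 2.35 at D9 and 21.5 and 21.6 in ESC. It fell by 1.78 (SE 0.03) and then fell by 3.64 (SE 0.04) (edgeR adjusted p = 8.5e-17). Timp1 thus held 43.72% of the family's TPM in MEF, 92.32% at D9 and 56.13% in ESC. Timp4 had at most 6 estimated reads in a library.

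Membrane-type metalloproteinases were nearly all Mmp14, which held 96.3% of their TPM in MEF and 77.88% at D9. Mmp14, a collagenase of the cell surface and activator of pro-Mmp2, lies at chr14:54431612-54445364 and had 180.1 and 177 TPM in MEF, 43.3 and 46.7 at D3, 15.8 and 15.6 at D6, 8.86 and 8.27 at D9 and 37.6 and 37.9 in ESC. It fell by 2.03 (SE 0.03) to D3 and fell by 1.53 (SE 0.04) to D6, and no groups overlapped. Its D9 level was 4.803% of the MEF mean and its ESC level 21.16%. The other 5 stayed under 5 TPM in every library. Mmp16 and Mmp17 fell from MEF to D3, with log2 differences of -2.29 (SE 0.17) and -2.22 (SE 0.09). Mmp15 was higher at D9 than in MEF by 1.03 (SE 0.14), from 0.388 and 0.327 to 0.686 and 0.695 TPM, and the call was lost without MEF replicate 2, where the difference was 0.92. Mmp24 and Mmp25 were higher in ESC than at D9 at no more than 0.443 TPM.

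Of the 18 secreted Mmp genes only 9 were tested. From MEF to D3, 6 of these fell and 2 rose, beside 14.5% and 14.6% of all genes. Among the 6, Mmp10 had 3 and 2 estimated reads in MEF and 0 and 0 at D3. Its call was lost with DESeq2, with the replicate block and with any single library of that comparison left out. Mmp11, also called stromelysin 3, was the most abundant secreted Mmp gene at every stage. It had 134 and 123 TPM in MEF, 92.8 and 81.9 at D3 and 26.2 and 22.3 at D6. At D9 it had 19.6 and 20.4 TPM, and in ESC 48.1 and 51.4. Its difference from MEF to D3 was -0.67 (SE 0.04), under the 2-fold minimum, and it fell by 1.64 (SE 0.05) from D3 to D6. Mmp2, gelatinase A, had 48.1 and 46.99 TPM in MEF, 20.8 and 20.9 at D3, 2.94 and 2.73 at D6, 1.28 and 1.34 at D9 and 21.01 and 20.8 in ESC. Its ESC libraries were at the level of D3. It fell by 1.22 (SE 0.04) to D3, fell by 2.87 (SE 0.04) to D6 and fell by 1.02 (SE 0.06) to D9. The last of these falls lies at the threshold: it was -0.98 without D6 replicate 1, -0.99 without D9 replicate 1 and -0.99 under the stricter filter.

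Mmp23, which is anchored in the membrane before it is cleaved, had 62.7 and 60.6 TPM in MEF, 21.9 and 19.03 at D3, 9.34 and 11.1 at D6, 7.41 and 9.43 at D9 and 6.86 and 6.49 in ESC. It fell by 1.49 (SE 0.09) and fell by 1.15 (SE 0.1) in the first steps, and unlike Mmp2 and Mmp11 it was not higher in ESC, with a log2 difference from D9 of -0.32 (SE 0.12). Mmp19 had 7.92 and 8.36 TPM in MEF, 0.184 and 0.153 at D3, 0.026 and 0.065 at D6, 0.039 and 0.057 at D9 and 1.91 and 2.03 in ESC. It fell by 5.62 (SE 0.13) to D3 and was higher in ESC than at D9 by 5.17 (SE 0.19). Mmp9, gelatinase B, stayed under 5 TPM, with 2.73 and 2.22 TPM in MEF, 0 and 0.011 at D9 and 1.27 and 1.98 in ESC. Macrophages are a known source of Mmp9 and Mmp12, and the 6 macrophage markers summed to 2.214 to 2.466 TPM in MEF, 0.4022 to 1.446 at D9 and 3.883 to 5.033 in ESC. Of these 6, 5 were lower at D9 than in MEF and 5 higher in ESC than at D9. Tyrobp had 2.65 and 3.699 TPM in ESC, while Fcgr1 and Ptprc were under 0.1 TPM there. Their part in the values of Mmp9 and Mmp12 was not tested.

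A cluster of secreted Mmp genes, which holds the interstitial collagenases, lies on chromosome 9. The stretch chr9:7272514-7699585 (GRCm38, 427.1 kb) holds 10 members, Mmp13, Mmp12, Mmp1b, Mmp3, Mmp1a, Mmp10, Mmp8, Mmp27, Mmp20 and Mmp7, and none of them passed 2.49 TPM in any library. Mmp1a had 0 estimated reads in every library and Mmp1b at most 2. Mmp13, collagenase 3, had 0.374 and 0.832 TPM in MEF, 0.102 and 0.052 at D3, 0 and 0 at D6, 0.012 and 0.005 at D9 and 0.154 and 0.195 in ESC. With 29 estimated reads at D3 over both libraries and 0 at D6, it was at least 8.71-fold lower at D6, taking 3 reads over the group as the floor. Mmp12, macrophage elastase, reached its highest level in ESC, at 2.06 and 2.49 TPM. At D6 and D9 nearly all of its reads were assigned to transcripts with a retained intron: 50.7 and 57.4 at D6 beside 0.0 and 0.0 on its other transcripts, and 79.6 and 61.2 at D9 beside 0.9 and 0.0. In ESC the other transcripts, not all of them coding, had 162.3 and 188.4 reads. Of all Mmp12 reads in ESC, 34.5% and 36.2% were assigned to protein-coding transcripts. Its call as higher at D9 than in MEF, 1.31 (SE 0.3), thus does not rest on coding transcripts, and it was lost without D9 replicate 1, where the difference was 0.90. Its smaller rise from MEF to D3, 1.1 (SE 0.3), was lost without MEF replicate 2 (0.94) and without D3 replicate 2 (0.88).

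The promoters of 3 of these genes are shown because most genes of the cluster hold the same 2 motifs, which the choice of members did not use. Capitals mark TGANTCA, the AP-1 motif, and TATAAA, the TATA box, in the same kind of window (RefSeq, GRCm38.p6; Mmp13 chr9:7272264-7272563, Mmp3 chr9:7445572-7445871 and Mmp12 chr9:7347124-7347423, plus strand).
Mmp13: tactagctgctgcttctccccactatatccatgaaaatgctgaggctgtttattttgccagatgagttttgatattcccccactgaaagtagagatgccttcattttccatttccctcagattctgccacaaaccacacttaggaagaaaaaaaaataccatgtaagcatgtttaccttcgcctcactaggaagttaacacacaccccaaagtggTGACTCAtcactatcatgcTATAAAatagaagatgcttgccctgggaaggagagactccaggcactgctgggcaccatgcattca
Mmp3: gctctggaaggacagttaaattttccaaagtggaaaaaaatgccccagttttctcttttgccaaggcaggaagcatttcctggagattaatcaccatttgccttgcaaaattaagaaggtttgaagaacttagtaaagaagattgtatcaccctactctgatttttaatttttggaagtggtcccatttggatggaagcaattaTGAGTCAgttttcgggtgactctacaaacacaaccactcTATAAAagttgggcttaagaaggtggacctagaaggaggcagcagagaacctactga
Mmp12: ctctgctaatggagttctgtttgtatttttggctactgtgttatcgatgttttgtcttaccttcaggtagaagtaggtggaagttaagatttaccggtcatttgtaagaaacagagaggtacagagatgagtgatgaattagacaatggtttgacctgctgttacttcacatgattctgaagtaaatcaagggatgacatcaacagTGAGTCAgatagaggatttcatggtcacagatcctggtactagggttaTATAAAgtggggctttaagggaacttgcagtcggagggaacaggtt
TGANTCA was found on either strand in the promoters of 8 of the 42 matched members, Mmp1a, Mmp1b, Mmp3, Mmp7, Mmp10, Mmp12, Mmp13 and Mmp20, all of them in the cluster. It is in 7.81% of all promoters. Mmp8 and Mmp27, also in the cluster, had no match to it. TATAAA was found in 14 members, 8 of them these same genes, and in 13.6% of all promoters.

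Most Adamts proteases fell. Of the 19 tested, 11 fell and 3 rose from MEF to D3, beside 14.5% and 14.6% of all genes, and 12 were lower and 4 higher at D9 than in MEF, beside 19.8% and 24.1%. The numbers that rose were near the shares over all genes, and the D9 calls of Adamts13 and Adamts19, among the 4, were unstable. Adamts2, the main procollagen N-proteinase, had 129 and 111 TPM in MEF, 2.22 and 4.01 at D3, 0.088 and 0.091 at D6, 0.355 and 0.082 at D9 and 9.53 and 11.4 in ESC. It fell by 4.11 (SE 0.06) to D3 (edgeR adjusted p = 7.1e-16) and fell by 3.05 (SE 0.13) to D6, and ESC was higher than D9 by 4.03 (SE 0.12). The other procollagen N-proteinases were low: Adamts14 fell by 4.18 (SE 0.11) to D3, from 2.83 and 2.49 TPM, and had 2.001 and 1.81 TPM in ESC. Adamts3 did not follow them. It rose by 1.89 (SE 0.19) from D3 to D6, to 1.01 and 1.02 TPM, and fell by 1.72 (SE 0.19) to D9.

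Adamts1, Adamts4 and Adamts5, which are known to cut proteoglycans, fell from MEF to D3. Other Adamts proteases moved the other way at low levels: Adamts20 rose by 1.34 (SE 0.18) from MEF to D3 and Adamts8 rose by 2.18 (SE 0.39) from D3 to D6. Adamts1 had 60.5 and 56.7 TPM in MEF, 4.91 and 5.49 at D3, 1.51 and 1.09 at D6, 0.778 and 0.988 at D9 and 1.74 and 1.45 in ESC. It fell by 3.43 (SE 0.04) to D3 and fell by 2.09 (SE 0.06) to D6. Adamts5, an aggrecanase, had 13.5 and 13.4 TPM in MEF, 5.502 and 6.19 at D3, 1.03 and 0.974 at D6, 0.310 and 0.323 at D9 and 0.552 and 0.487 in ESC. It fell in each of the 3 steps, with log2 differences of -1.24 (SE 0.04), -2.53 (SE 0.05) and -1.57 (SE 0.08). Adamts4, the other classic aggrecanase, had 7.11 and 7.01 TPM in MEF, 0.975 and 1.04 at D3, 0.436 and 0.485 at D6, 0.292 and 0.409 at D9 and 1.57 and 1.76 in ESC. It fell by 2.87 (SE 0.09) to D3 and was higher in ESC than at D9 by 2.07 (SE 0.12), while Adamts1 and Adamts5 were not called there, at 0.93 (SE 0.08) and 0.56 (SE 0.09). Whether ESC with D9 differed between these genes was not tested. The neighbours Adamts1 and Adamts5 lie close together on chromosome 16, at chr16:85793827-85803113 and chr16:85856173-85901828.

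Adamts12, which can cleave cartilage oligomeric matrix protein, had 5.15 and 5.28 TPM in MEF, 1.33 and 1.499 at D3, 0.487 and 0.452 at D6, 0.153 and 0.178 at D9 and 1.05 and 1.19 in ESC. It fell in all 3 steps, with log2 differences of -1.92 (SE 0.07), -1.57 (SE 0.09) and -1.4 (SE 0.13). Adamts10, which binds fibrillin microfibrils, had 19.9 and 15.98 TPM in MEF, 20.9 and 21.6 at D3, 10.3 and 10.4 at D6, 7.12 and 5.57 at D9 and 7.83 and 6.99 in ESC. From MEF to D3 its difference was 0.39 (SE 0.05), and it fell by 1.18 (SE 0.05) from D3 to D6. Its reads were assigned almost wholly to transcripts not annotated as protein-coding, with at most 13% on coding transcripts in a library. The call as lower at D9 than in MEF was lost under library-size scaling, which moved the difference from -1.29 to the threshold.

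A few members rose, a smaller share than of all genes. From MEF to D3 these were Mmp28, Adamts7, Adamtsl4 and Adamts17, together with Adamts20 and Mmp12, which stayed under 1 TPM at D3. Mmp28, epilysin, a metalloproteinase known from keratinocytes, lies at chr11:83440768-83463071 and had 1.79 and 1.55 TPM in MEF, 31.2 and 32.9 at D3, 12.2 and 12.5 at D6, 3.37 and 3.49 at D9 and 0.390 and 0.408 in ESC. It rose by 4.26 (SE 0.06) to D3 (edgeR adjusted p = 2.7e-16), the largest rise of a member in that step, then fell by 1.38 (SE 0.05) to D6 and fell by 1.79 (SE 0.05) to D9. The D3 libraries stood above all others and the ESC libraries below all others. Its call as higher at D9 than in MEF, 1.08 (SE 0.07), was lost without MEF replicate 2 (0.97) and with DESeq2 (0.94).

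Adamts7, another protease reported to cleave cartilage oligomeric matrix protein, lies at chr9:90163069-90208071 and had 4.99 and 4.47 TPM in MEF, 36.7 and 41.6 at D3, 29.8 and 32.04 at D6, 17.5 and 21.5 at D9 and 0.746 and 0.851 in ESC. It rose by 2.99 (SE 0.04) to D3 (edgeR adjusted p = 3e-16), and the differences after that were -0.34 (SE 0.04) to D6 and -0.65 (SE 0.04) to D9, both under 2-fold. In ESC with D9 the log2 difference was -4.4 (SE 0.05). All D3, D6 and D9 libraries were thus above both MEF and ESC. Adamts17, linked to fibrillin microfibrils, had 0.841 and 1.18 TPM in MEF, 6.396 and 4.37 at D3, 5.19 and 6.93 at D6, 1.79 and 3.17 at D9 and 0.102 and 0.526 in ESC. It rose by 1.82 (SE 0.17) to D3 and fell by 1.2 (SE 0.15) from D6 to D9. At D9 it was still higher than in MEF, by 1.24 (SE 0.18), and the difference in ESC with D9 was -2.29 (SE 0.19).

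**Figure D4:**
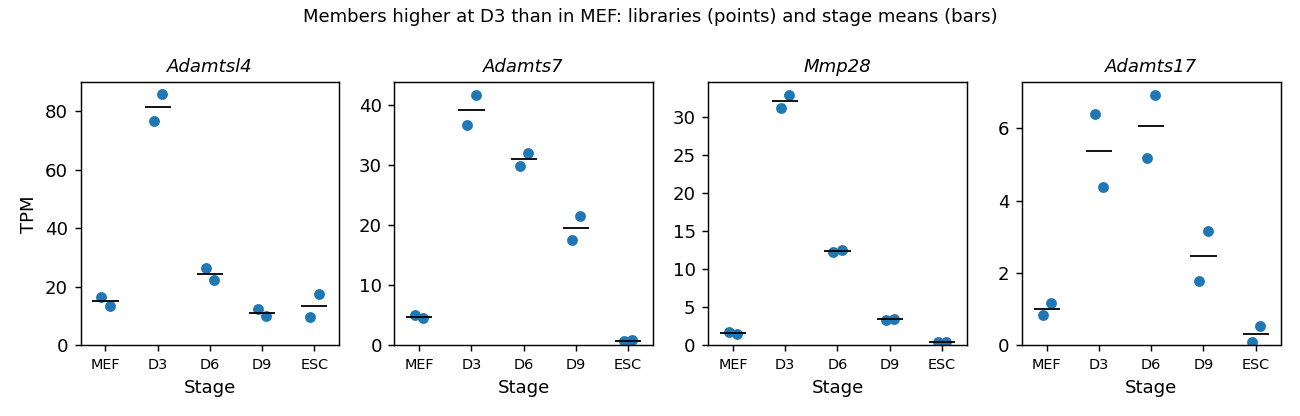
TPM (vertical axis, from 0) of Adamtsl4, Adamts7, Mmp28 and Adamts17 at the 5 stages. Points are libraries and bars stage means. Adamtsl4, Adamts7 and Mmp28 are highest at D3, where both libraries exceed all libraries of other stages, and Adamts17 is high at both D3 and D6.

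Adamts7, Adamts13, Adamts17, Adamts19 and Mmp28, 5 of the 53 tested members, were higher at D9 than in MEF and lower in ESC than at D9, as were 8.17% of all tested genes. The D9 libraries are shared by both comparisons, and the members' share is near that of all genes. Adamts13, which cleaves von Willebrand factor, and Adamts19 reached no more than 0.13 and 0.079 TPM in any library, and their calls were unstable. Without D9 replicate 1 the difference of Adamts13 from MEF was 0.17 in place of 1.98, and with either MEF replicate left out it was 1.84 or 2.11 and not called. Its difference in ESC with D9 was -1.77 without D9 replicate 1, not called, in place of -3.57. For Adamts19 it was 1.49 without MEF replicate 1, 1.23 without MEF replicate 2 and 1.1 without D9 replicate 2, none of them called, and its call in ESC with D9 was lost with any of the 4 libraries of that comparison left out, at -0.78 to -1.26. No lysyl oxidase, Plod, P4ha or Timp gene was higher at D9 than in MEF.

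Adamts-like proteins lack the protease domain and bind to fibrillin-rich microfibrils. The sum of the 5 was 66.65 ± 1.09 TPM (SD, n = 2) in MEF and 92.95 ± 7.174 at D3, and Adamtsl4 held 22.6% of it in MEF and 87.42% at D3. Without Adamtsl4 the sum went down over that step, from 51.58 to 11.7 TPM. Adamtsl4, known for its place in the fibres that hold the eye lens, lies at chr3:95676201-95687917 and had 16.6 and 13.5 TPM in MEF, 76.5 and 86.00 at D3, 26.3 and 22.2 at D6, 12.5 and 9.92 at D9 and 9.64 and 17.5 in ESC. It rose by 2.04 (SE 0.06) to D3 (edgeR adjusted p = 1e-12) and fell by 1.79 (SE 0.06) to D6, and its D9 and ESC libraries were near those of MEF. Adamtsl3 had 2.605 and 4.04 TPM in MEF, 6.39 and 6.98 at D3, 0.370 and 0.083 at D6, 0.035 and 0.011 at D9 and 0.348 and 0.163 in ESC. From MEF to D3 the difference was 0.69 (SE 0.07), and from D3 to D6 it fell by 6.66 (SE 0.13), to under 0.4 TPM.

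Adamtsl5 had 38.1 and 41.7 TPM in MEF, 1.22 and 1.45 at D3, 0.291 and 0.894 at D6, 0.755 and 0.583 at D9 and 4.88 and 6.19 in ESC. It fell by 4.58 (SE 0.15) to D3 and was higher in ESC than at D9 by 3.43 (SE 0.23). Adamtsl1 had 7.19 and 6.802 TPM in MEF, 3.76 and 3.59 at D3, 0.759 and 1.04 at D6, 0.900 and 0.959 at D9 and 1.35 and 1.297 in ESC. It was not called from MEF to D3 and fell by 2.34 (SE 0.08) to D6. Adamtsl2, a low member at 1.39 and 1.33 TPM in MEF, was at 0.002 and 0 at D3. The family thus held members that fell at D3, at D6 and one that rose before it fell.

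Of the 53 tested members, 29 were higher in ESC than at D9, beside 18.6% of all genes. ESC were grown on irradiated feeder cells and not sorted, and 11 of the 12 fibroblast markers were also higher in ESC than at D9. As a percent of the MEF mean, the fibroblast markers in ESC ranged from 1.17 (Lum) to 14.82 (Thy1), with a median of 8.997; at D9 they had a median of 0.1757. The 28 members at 5 TPM or more that were lower at D9 than in MEF ranged from 2.72 (Adamts1) to 59.09 (Timp1) in ESC, with a median of 21.34; at D9 they had a median of 2.551. Of these 28, 19 were above the highest fibroblast marker and 9 within the range of the markers. Loxl2 stood at 45.48%, Loxl3 at 49.49%, Timp2 at 51.86% and Mmp2 at 44.0%, while Lox stood at 14.4%, P4ha3 at 11.5% and Adamts2 at 8.713%. How much of the ESC values came from feeder cells was not tested.

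**Figure D5:**
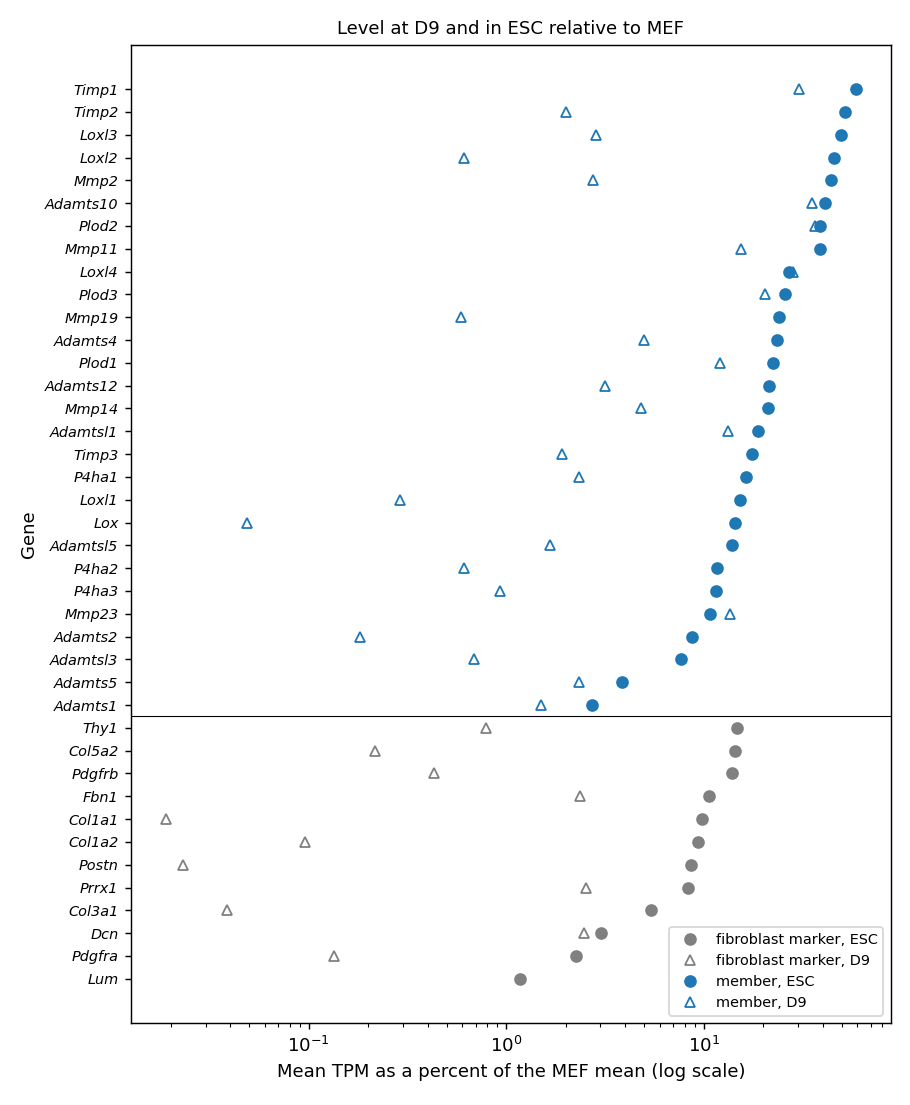
Mean TPM at D9 (open triangles) and in ESC (filled circles) as a percent of the MEF mean (horizontal axis, log scale) for the 12 fibroblast markers (grey, below the line) and 28 members (blue, above it). Lum is at 0 at D9 and has no triangle. ESC circles of the members reach 59.09%, and those of the markers stop at 14.82%.

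Other genes of the same pathway, a list of 30 of which 29 were tested, moved in the same comparisons. From MEF to D3, 19 fell and 3 rose, beside 35 and 6 of the 53 members and 14.5% and 14.6% of all genes. The 3 that rose were thus a smaller share than of all genes. At D9 25 were lower than in MEF and 1 higher, beside 19.8% and 24.1% of all genes. P4hb, the beta subunit that completes prolyl 4-hydroxylase, fell by 1.66 (SE 0.03) to D3, and Serpinh1, the collagen chaperone Hsp47, fell by 1.94 (SE 0.04). Bmp1, which removes the carboxy-terminal propeptides of procollagens, fell by 1.77 (SE 0.04). Both plasminogen activators, which are serine proteases, fell as well, with log2 differences of -4.68 (SE 0.07) for Plat and -2.45 (SE 0.09) for Plau. From D3 to D6 10 fell and none rose, beside 10.2% and 9.26% of all genes. The median of the list over that step was -0.9, beside -1.44 for the members.

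Reck, a membrane-anchored inhibitor of metalloproteinases, was not called from MEF to D3, at 0.41 (SE 0.05), and fell by 2.08 (SE 0.06) from D3 to D6. Mrc2, the receptor that takes up cleaved collagen, fell in all 3 steps, with log2 differences of -1.94 (SE 0.04), -3.7 (SE 0.05) and -1.41 (SE 0.09). The 3 that rose from MEF to D3 were Tgm2, a transglutaminase that cross-links matrix proteins, by 2.65 (SE 0.04), Colgalt2, a collagen galactosyltransferase, by 2.79 (SE 0.21), and Pcolce2, a procollagen proteinase enhancer, by 1.51 (SE 0.05). Tgm2 was also higher at D9 than in MEF, by 2.51 (SE 0.04), and in ESC with D9 its difference was -2.29 (SE 0.04). In ESC with D9, 13 of the list were higher and 2 lower, beside 18.6% and 14.3% of all genes. The median was 0.78, beside 1.49 for the members.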

How the data were processed

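RNA of 5 stages was measured in 10 libraries, 2 per stage, grouped by sample title. The authors deposited a table per library with values for 109617 transcripts, each with an estimated count and a TPM value, per the file headers, made with Salmon 0.8.2 and mm10, per the submitters' processing notes. The index, annotation release and strand setting are not given in the sources used here. Effective lengths were identical in all tables.

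Estimated counts were summed to 45706 genes and rounded. Differences were tested in edgeR 4.0.16 (quasi-likelihood F test, R 4.3.3) with TMM scaling and filterByExpr (minimum count 10, minimum total 15), fitted to all 10 libraries, and p-values were adjusted by Benjamini-Hochberg over 20165 genes. SE was taken as the size of the log2 fold change divided by √F. On simulated counts for D3 with MEF (20165 genes, 200 of them changed), 98% of 2-fold and 100% of 4-fold changes had an edgeR adjusted p under 0.05. So did 11 unchanged genes. No fold minimum was applied in the simulation, and all genes were given the same spread between libraries, unlike real genes. The changed genes were drawn only from genes above a minimum mean level, so recovery was not measured for the lowest genes. Replicates differed by more than sampling noise, with a chi-square per degree of freedom of 2.78 to 5.05. Their spread beyond counting noise was small, with a common coefficient of variation of 3.75% in the edgeR fit.

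Values by library are given for members with a mean of 5 TPM or more in a stage, and the others by counts, ranges and examples. The members, the lists and the tests were chosen with earlier results of these data known. Alternatives were DESeq2 1.42.0, no low-count filter, a stricter filter (10 CPM in 2 libraries), library-size scaling, limma 3.58.1 on log2(TPM + 1) and log2(TPM + 0.1), a replicate block, leaving out each library, and role sums without their most abundant member. Coordinates and exons come from GENCODE M21 (GRCm38), which holds 62 of the 63 identifiers, and promoters from RefSeq (GRCm38.p6), matched by symbol. Figures used matplotlib 3.10.9.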

Additional observations from a re-analysis of the deposited data

How the results depend on the processing

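No called difference of a member reversed under any alternative. Of the 111 called differences of the 32 members at 5 TPM or more, DESeq2, the stricter filter and library-size scaling each lost 1, limma on log2(TPM + 0.1) lost 7 and limma on log2(TPM + 1) lost 16. Of the 60 called differences of lower members, limma on log2(TPM + 1) lost 42 and limma on log2(TPM + 0.1) lost 27. The pseudocounts shrink the changes of low genes by construction, so calls under 5 TPM depend on the scale. Calls of lower members were also lost without a pseudocount. DESeq2 lost 9 of 59, and leaving out single libraries lost 13 of 60. The stricter filter tested 17 of these differences and lost 1. Among differences given in the text that did not pass, 2 that were near 0 changed sign between ESC and D9: the log2 change of Loxl4 was 0.01 with DESeq2, and that of Plod2 ranged from -0.03 to 0.03 with each library left out. The Adamts1 change between those stages passed, at a log2 change of 1.02, without D9 replicate 2. Without the most abundant member of the role group, 36 of the 40 role sums moved by 1 SD or more, among them the membrane-type Mmp sum in MEF, from 185.2 to 6.845 TPM without Mmp14, and the Timp sum at D9, from 67.71 to 5.197 TPM without Timp1.

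With limma on log2(TPM + 1), counts were 0 higher and 18 lower for D6 with D3, 0 higher and 4 lower for D9 with D6, 1 higher for D9 with MEF, and 19 higher and 3 lower for ESC with D9. With limma on log2(TPM + 0.1), 1 was higher for D6 with D3, 0 for D9 with D6 and 1 for D9 with MEF, and 4 were lower for ESC with D9. Under the stricter filter, which tests fewer members, 0 were higher for D6 with D3, 1 for D9 with D6 and 3 for D9 with MEF, and 3 were lower for ESC with D9. With DESeq2, 3 were higher for D9 with MEF. With each library left out in turn, that count ranged from 3 to 6, the lower count was 34 for D3 with MEF and 39 for D9 with MEF, and the higher count for ESC with D9 ranged from 27 to 29.

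Same-numbered libraries did not deviate together (correlations from -0.02 to 0.022), so the replicate numbers were not taken as pairs. With the replicate block, members higher and lower were 6 and 34 for D3 with MEF, 3 and 32 for D6 with D3, 3 and 9 for D9 with D6, 6 and 39 for D9 with MEF, and 29 and 7 for ESC with D9. With 2 libraries per stage and estimated counts, intervals from the libraries of a stage alone are wide. The SEs given above use a spread fitted over all 10 libraries. Members with a few reads are not told apart from 0.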
